A study of Mus musculus with 42 samples.

Results

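The transcription factor p53 (gene Trp53) and genes that it is known to switch on were followed in lung, liver and forestomach of mice given BkF (benzo[k]fluoranthene), one of the polycyclic aromatic hydrocarbons, whose metabolites form DNA adducts. The 30 genes were chosen by name as known members of the pathway and not by their measured values, although earlier results of these data were known by then. They are 30 of the 20018 genes named on the array. They were read by 36 of the 55681 probes, and each gene was described on its brightest probe. That probe passed the filter on dim signals for 29 of the 30 genes in lung, 27 in liver and 27 in forestomach. The question was whether these genes differed, gene by gene, between exposed mice and vehicle-treated controls 72 hours after the last dose.

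In an undamaged cell p53 protein is kept scarce by Mdm2, a ubiquitin ligase that marks it for destruction and is itself a p53 target, so the pair forms a feedback loop. When DNA is damaged, kinases such as ATM, ATR and the checkpoint kinases modify p53 and free it from Mdm2, so the protein accumulates with little need for more Trp53 mRNA. The stabilized protein binds paired short elements in its target genes, which then arrest the cell cycle (Cdkn1a, Ccng1, Btg2), start cell death (Bax, Bbc3, Pmaip1, Fas), or aid repair and metabolism (Polk, Rrm2b, Sesn1, Sesn2). Target transcripts are thus the usual mRNA readout of p53 activity, whereas the Trp53 transcript is not.

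The animals were adult male Muta™Mouse, about 11 weeks old, a transgenic strain that carries a bacterial lacZ reporter for mutation scoring. They received BkF in olive oil by oral gavage on each of 28 days, at 25 (D1), 50 (D2) or 100 mg/kg-bw/day (D3), and vehicle-treated controls (D0) received olive oil alone. The series held 42 arrays from 15 mice, with 4, 3, 4 and 4 lungs, 4, 2, 3 and 4 livers, and 4, 3, 4 and 3 forestomachs from D0 to D3. Each array compared the RNA of a tissue, labeled with Cy5, with the same universal reference RNA pooled from 11 mouse cell lines, labeled with Cy3, and values are therefore log2 ratios of tissue over reference. A change is the difference between an exposed group and the vehicle-treated controls on this log2 scale, and a range in parentheses after a change is its 95% interval. Ratios of different genes say nothing about which gene was more abundant. The arrays measured only RNA, so neither p53 protein nor adducts are covered here. In separate assays of the lungs, the paper reported DNA adducts at every dose of BkF, without a trend over dose.

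To show what such a p53 binding pair looks like in these genes, the promoter windows of the RefSeq tables (250 bases before to 50 after each start site, assembly GRCm38.p6) were searched for a pair of the 4-base cores CATG or CAAG or CTTG or CTAG separated by 6 bases, on both strands. Windows were given for 24 of the 30 genes, and the pair was found in 5 of them, against 8.19% of all 27025 genes. By window it was in 6 of 35 (17.1%), with the pair of Aen counted in 2 overlapping windows, against 7.22% of all 32851 windows. Each sequence below is the plus strand, and capitals mark the 2 cores and the bases between them.
Cdkn1a: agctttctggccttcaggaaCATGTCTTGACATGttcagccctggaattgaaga
Trp53: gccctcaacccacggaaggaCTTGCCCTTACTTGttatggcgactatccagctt
Bbc3: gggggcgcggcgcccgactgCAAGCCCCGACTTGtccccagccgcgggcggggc
Plk2: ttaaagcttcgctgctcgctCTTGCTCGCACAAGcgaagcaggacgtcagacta
Aen: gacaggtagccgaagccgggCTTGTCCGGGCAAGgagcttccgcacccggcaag
These stretches lie at chr17:29090911-29090964 (Cdkn1a), chr11:69580267-69580320 (Trp53), chr7:16309469-16309522 (Bbc3), chr13:110395021-110395074 (Plk2) and chr7:78895920-78895973 (Aen), all within the promoter window of the gene. The pair ran from base -48 to -35 of the start site in Cdkn1a, from -72 to -59 in Trp53, from -94 to -81 in Bbc3, and from -3 to 11 in Plk2, where it overlaps the start site itself. In Aen it ran from 14 to 27 of one start site and from -118 to -105 of the other. The motif is short, so a match is a description of the letters and not a measured binding site, and a window without it says only that the letters are not in those 300 bases.

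The arrays were checked against their labels first. Marker genes of each tissue were well above background in all arrays of that tissue (7 of 7 in lung, 8 of 8 in liver, 8 or 9 of 9 in forestomach). Some arrays stood apart from their group. In forestomach, the mean log2 ratio of 9 glandular stomach genes was 5.10 to 6.24 on 9 arrays (2 D0, 3 D1, 3 D2, 1 D3) and 0.54 to 1.70 on the other 5 (D0 mice 1 and 4, D2 mouse 11, D3 mice 16 and 20). Lung of D2 mouse 12 carried skeletal muscle genes at 4.86 (vehicle-treated lungs -0.79 to -0.52), liver of D3 mouse 17 carried them at 3.88, and lung of D1 mouse 7 carried glandular stomach genes at 4.00. Fits without the arrays that stood apart left out these arrays and also liver of D2 mouse 12. That liver carried neither skeletal muscle genes (-0.77) nor glandular stomach genes (0.04). It had the highest mean of any liver over the 30 genes followed (-0.45), so leaving it out is no correction for other tissue. Lung arrays of a dose group all sat in the same array column of their slides, and nearly so in the other tissues, so array position and dose cannot be told apart. Exposure itself was visible in lung, where Cyp1a1, the main enzyme that oxidizes such hydrocarbons, was higher by 4.11, 6.28 and 6.81 at D1, D2 and D3 (limma adjusted p = 1.00, 0.00914 and 0.00341). Cyp1a1 was also higher in liver (2.28, 5.69 and 5.26) and forestomach (0.58, 2.24 and 3.24), where the adjusted p values did not pass 0.05. Cyp1b1, a related enzyme, was higher in lung by 3.57, 5.50 and 6.14 (adjusted p = 1.00, 0.0130 and 0.00375).

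None of the 29 genes tested in lung, or of the 27 tested in liver and in forestomach, was called at any dose, where a call needed a limma adjusted p of 0.05 or less over all probes kept and a change of at least 1.5-fold. Calls were rare over the whole array as well. In lung, 0% of 32706 probes were called at D1, 0.0153% at D2 and 0.0336% at D3. In liver, 0% of 30509 probes were called at D1, 0.0426% at D2 and 0.0524% at D3, and in forestomach 0% of 25326 probes at each dose. Against shares of this size a count of 0 among 27 to 29 genes is not a result about them, so the sizes of the changes and their intervals carry the description. A linear trend over dose called 0.0336% of probes in lung and 0% in liver and forestomach, and no member among them.

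In lung, 3 of 29 genes had an unadjusted p under 0.05 at D1, 4 at D2 and 3 at D3, against 1.77%, 4.25% and 8.02% of all probes. In liver the counts were 0, 7 and 1 of 27 genes, against 1.54%, 10.7% and 7.8% of all probes. In forestomach they were 8, 3 and 0 of 27 genes, against 12.1%, 7.59% and 2.2%. The median change of the genes in lung was 0.05, 0.14 and 0.07 from D1 to D3, with all probes at -0.01, -0.01 and 0.0039. In liver the medians were 0.06, 0.19 and 0.02, with all probes between -0.01 and -0.0021. At D2 in liver 23 of 27 genes were higher than in vehicle-treated controls (20 to 23 with each array left out in turn), against 48.7% of all probes. In forestomach the medians were 0.06, -0.01 and 0.06, with all probes at -0.01, 0.02 and 0.0037. At the high dose, 17 of 29 intervals in lung, 18 of 27 in liver and 7 of 27 in forestomach lay wholly inside a 1.5-fold change in either direction, and 25, 24 and 21 lay inside a 2-fold change. Changes of 2-fold were therefore outside the interval for most genes in each tissue at D3. Forestomach, whose median interval was 0.59 wide on each side at D3, left more room for changes of 1.5-fold.

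**Figure D1:**
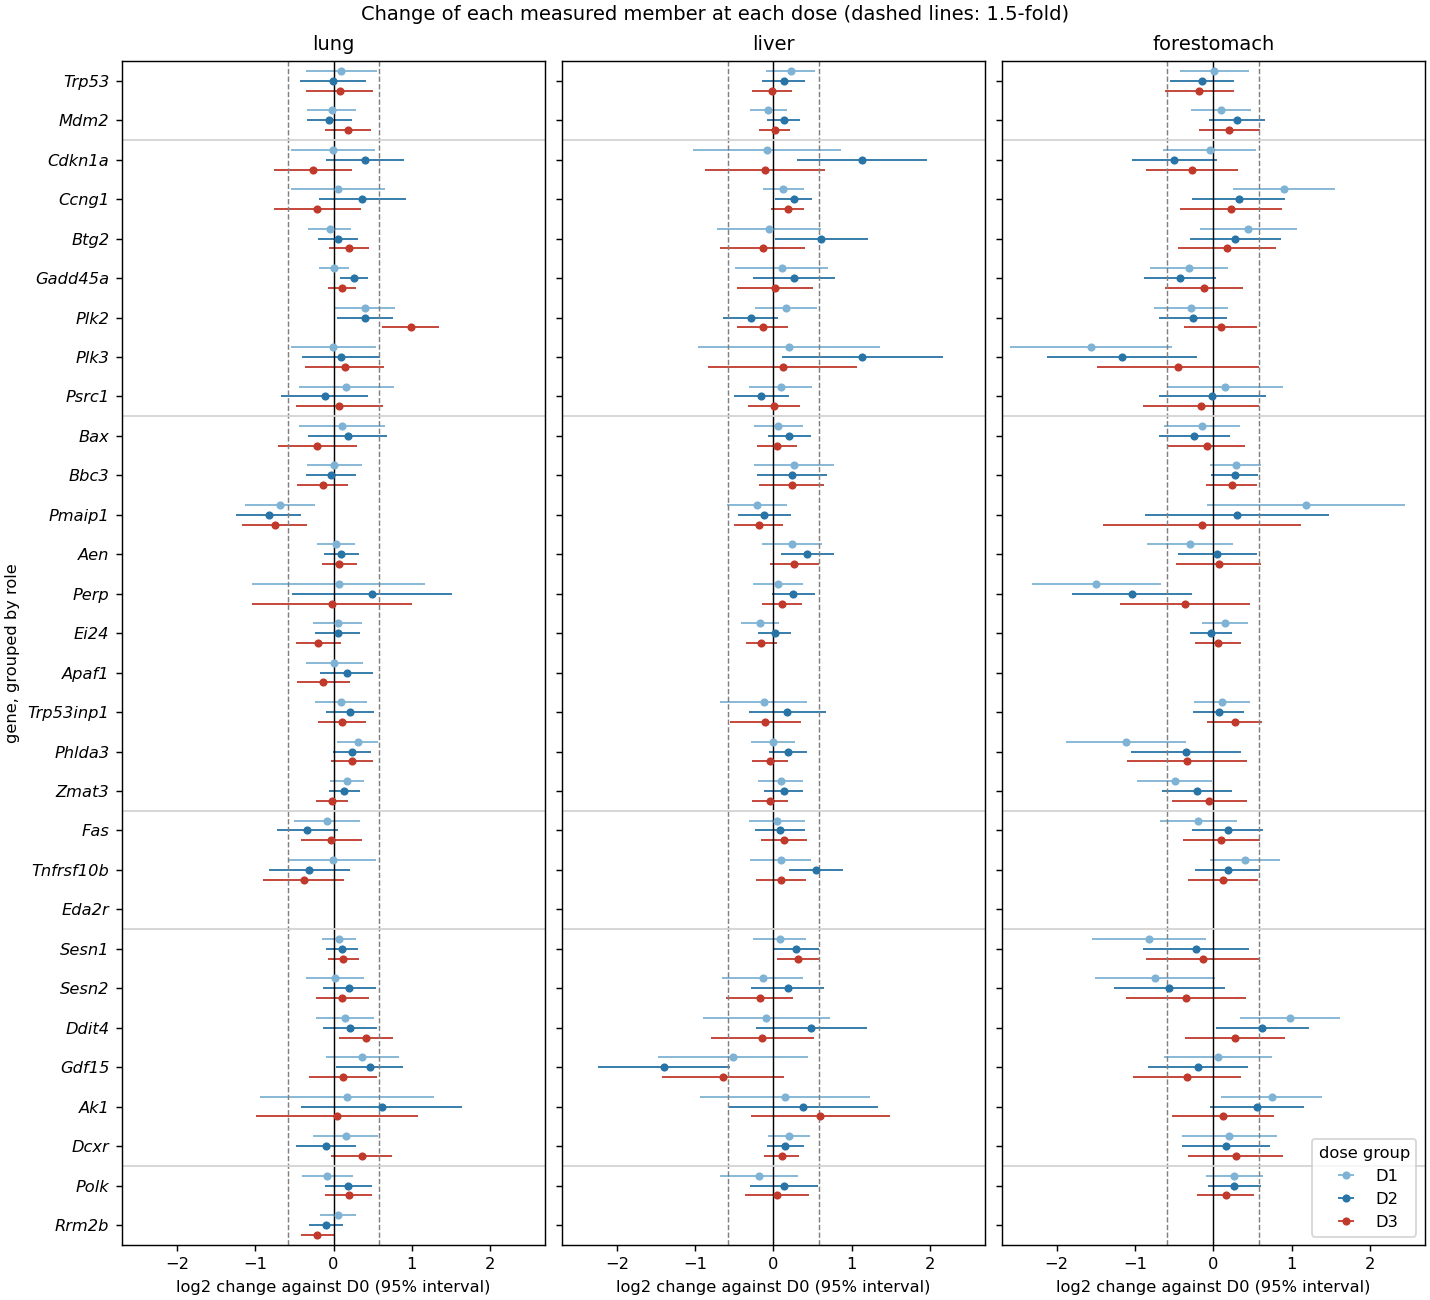
Change of each member against vehicle-treated controls (log2, horizontal axis) with its 95% interval, for D1, D2 and D3 in lung, liver and forestomach, and dashed lines at a 1.5-fold change. Most intervals include 0, Plk2 in lung at D3 (0.98) lies to the right, and at D3 the widest intervals are those of Ak1 and Perp in lung, Plk3 in liver, and Pmaip1 and Plk3 in forestomach.

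Trp53 itself differed little from vehicle-treated controls. In lung its log2 ratio was -1.61, -1.57, -1.59 and -1.22 in vehicle-treated mice, -1.51, -1.71 and -0.97 in D1 mice, -1.66, -1.40, -1.28 and -1.68 in D2 mice and -1.73, -1.69, -1.42 and -0.84 in D3 mice. The dose groups overlapped throughout, and the change at D3 was 0.08 (95% interval -0.35 to 0.50, adjusted p = 0.964). In liver the log2 ratio was -1.25, -1.47, -1.63 and -1.60 in vehicle-treated mice, -1.18 and -1.35 in D1 mice, -1.30, -1.28 and -1.50 in D2 mice and -1.34, -1.70, -1.34 and -1.63 in D3 mice. These groups overlapped too, with a D3 change of -0.01 (95% interval -0.27 to 0.24, adjusted p = 0.989). In forestomach it was -0.54, -1.03, -1.09 and -0.72 in vehicle-treated mice, -0.98, -0.87 and -0.65 in D1 mice, -1.16, -1.21, -0.60 and -0.98 in D2 mice and -1.09, -1.33 and -0.65 in D3 mice. Again every exposed group overlapped the controls, and the change was -0.18 (95% interval -0.62 to 0.26, adjusted p = 1.00). Over all alternatives the D3 change of Trp53 ran from -0.12 to 0.18 in lung, -0.07 to 0.20 in liver and -0.37 to 0.07 in forestomach.

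Mdm2, which closes the feedback loop, gave the same kind of picture. In lung its log2 ratio was 0.25, 0.03, -0.01 and 0.30 in vehicle-treated mice, 0.13, 0.11 and 0.12 in D1 mice, 0.28, -0.10, 0.07 and 0.12 in D2 mice and 0.31, 0.34, -0.03 and 0.70 in D3 mice. D3 mouse 20 was the highest lung and the other 3 D3 lungs lay close to the range of the controls. The change at D3 was 0.19 (95% interval -0.10 to 0.48, adjusted p = 0.796), or 0.07 without mouse 20. In liver it was -1.10, -1.0005, -0.98 and -1.01 in vehicle-treated mice, -1.10 and -1.07 in D1 mice, -1.09, -0.84 and -0.75 in D2 mice and -1.02, -1.02, -0.90 and -1.09 in D3 mice. D2 mice 12 and 13 were the highest, D2 mouse 11 was among the lowest, and the D3 change was 0.02 (95% interval -0.18 to 0.22, adjusted p = 0.978). In forestomach it was -1.06, -0.93, -0.79 and -0.31 in vehicle-treated mice, -0.72, -0.51 and -0.79 in D1 mice, -0.55, -0.50, -0.15 and -0.67 in D2 mice and -0.62, -0.50 and -0.57 in D3 mice. All 3 D3 mice lay inside the control range, with a change of 0.21 (95% interval -0.18 to 0.59, adjusted p = 1.00). Over all alternatives the D3 change of Mdm2 ran from 0.07 to 0.31 in lung, -0.02 to 0.32 in liver and 0.11 to 0.46 in forestomach, with the highest liver and forestomach values under median centering, which moved the median of all probes by 0.15 and 0.13 there.

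Cdkn1a, which encodes the cyclin-dependent kinase inhibitor p21 and is the best known p53 target, had a change below 0 at the high dose in each tissue, with an interval that included 0. This direction turned with a second, dimmer probe in lung (0.15) and liver (0.09). In liver it also turned when arrays were centered on their median in place of loess (0.16) or without vehicle-treated mouse 2 (0.12), and in forestomach over the arrays that carry glandular stomach genes (0.17, with 1 D3 array against 2 controls). In lung its log2 ratio was -0.74, -0.14, -0.84 and -0.92 in vehicle-treated mice, -0.78, -0.63 and -0.60 in D1 mice, -0.49, 0.34, -0.34 and -0.55 in D2 mice and -0.70, -0.69, -0.74 and -1.56 in D3 mice. D2 mouse 12 and vehicle-treated mouse 2 were the highest, D3 mouse 20 was the lowest, and the change was 0.40 (-0.10 to 0.90) at D2 and -0.26 (95% interval -0.76 to 0.24, adjusted p = 0.85) at D3, or -0.05 without D3 mouse 20. Within slides Cdkn1a was higher at D2 than at D0 on 4 of 4 slides, by 0.25 to 0.58. Without the lung arrays of D1 mouse 7 and D2 mouse 12 the D2 change was 0.20. In liver it was -3.15, -2.33, -3.07 and -3.58 in vehicle-treated mice, -3.19 and -3.04 in D1 mice, -2.56, -0.74 and -2.39 in D2 mice and -3.10, -3.16, -2.74 and -3.57 in D3 mice. The D2 group had the highest mean, with a change of 1.14 (95% interval 0.31 to 1.97, adjusted p = 0.34), while D2 mice 11 and 13 lay within the range of the controls and D2 mouse 12 far above every other liver. Without that array and D3 mouse 17 the change was 0.56, and the second probe of Cdkn1a gave 0.23 with all arrays kept. At D3 the main probe gave -0.11 (95% interval -0.88 to 0.66, adjusted p = 0.967). In forestomach the log2 ratio was 1.06, 0.57, 0.62 and 0.27 in vehicle-treated mice, 0.95, 0.52 and 0.29 in D1 mice, -0.16, 0.84, -0.04 and -0.11 in D2 mice and 0.13, 0.76 and 0.19 in D3 mice. There 3 of 4 D2 mice lay below every control and D2 mouse 12 lay within them, and the changes were -0.50 (-1.04 to 0.05) at D2 and -0.27 (95% interval -0.86 to 0.32, adjusted p = 1.00) at D3. With each array left out in turn the D3 change ran from -0.47 (without D3 mouse 17) to -0.13 (without vehicle-treated mouse 1).

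Ccng1, which encodes cyclin G1, a phosphatase partner that feeds back on Mdm2, completed the 4 genes followed in every tissue. In lung its log2 ratio was -0.39, -0.01, -0.37 and -0.86 in vehicle-treated mice, -0.46, -0.18 and -0.42 in D1 mice, -0.54, 0.95, -0.20 and -0.35 in D2 mice and -0.62, -0.65, -0.38 and -0.80 in D3 mice. D2 mouse 12 stood alone at the top, and the D2 change went from 0.37 to 0.04 without the arrays that stood apart. At D3 the change was -0.21 (95% interval -0.77 to 0.35, adjusted p = 0.912). In liver it was -1.67, -1.58, -1.73 and -1.88 in vehicle-treated mice, -1.61 and -1.58 in D1 mice, -1.64, -1.46 and -1.27 in D2 mice and -1.61, -1.49, -1.55 and -1.48 in D3 mice. The liver changes were above 0, at 0.12, 0.26 (0.03 to 0.49) and 0.18 (95% interval -0.03 to 0.40, adjusted p = 0.689). The D1 change was 0.07 without vehicle-treated mouse 4, and the D2 change was 0.17 without D2 mouse 13. In forestomach it was -1.03, -0.51, -0.43 and -1.43 in vehicle-treated mice, 0.19, 0.27 and -0.30 in D1 mice, -0.96, -0.12, -0.65 and -0.37 in D2 mice and -0.67, -0.08 and -1.12 in D3 mice. The 3 D1 mice lay above all 4 controls, with a change of 0.91 (95% interval 0.26 to 1.55, adjusted p = 0.297), which was 0.49 once the glandular stomach score was a covariate, and at D3 the change was 0.23 (-0.42 to 0.87). Over all alternatives the D3 change of Ccng1 ran from -0.36 to -0.08 in lung, 0.13 to 0.44 in liver and -0.04 to 0.47 in forestomach, with the highest liver value under median centering.

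**Figure D2:**
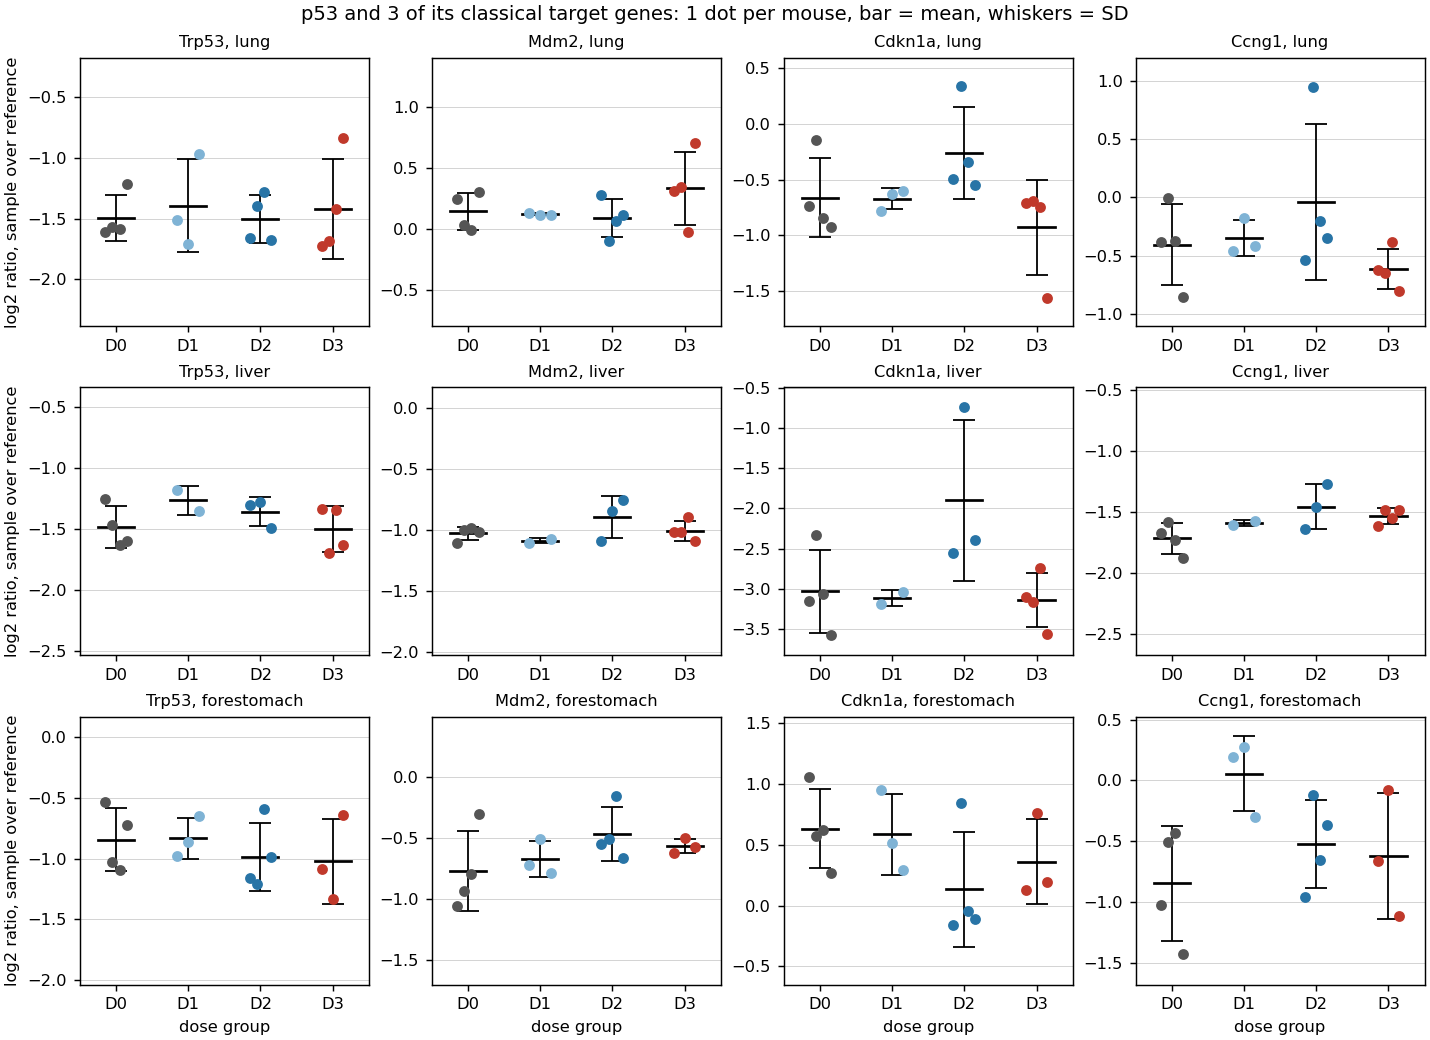
Log2 ratio of tissue over reference RNA (vertical axis) of Trp53, Mdm2, Cdkn1a and Ccng1 in lung, liver and forestomach, by dose group, with a point for each mouse and bars for the mean ± SD. The exposed groups overlap the vehicle-treated controls in every panel except D1 for Ccng1 in forestomach, and D2 mouse 12 lies alone at the top for Cdkn1a (-0.74) in liver and for Ccng1 (0.95) in lung.

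The gene closest to a call was Plk2, a polo-like kinase that p53 is known to induce and that is also an early response gene, in lung. Its log2 ratio was -1.30, -1.43, -1.01 and -0.75 in vehicle-treated mice, -0.86, -0.85 and -0.48 in D1 mice, -0.49, -1.06, -0.55 and -0.80 in D2 mice and -0.12, 0.10, -0.16 and -0.37 in D3 mice. All 4 D3 lungs lay above every vehicle-treated lung, and above every other exposed lung too. The change was 0.40 (0.01 to 0.78) at D1, 0.40 (0.04 to 0.76) at D2 and 0.98 (0.63 to 1.34) at D3, where it amounted to 1.98-fold with a limma adjusted p of 0.0715. The linear trend over dose gave 0.93 from 0 to the high dose (adjusted p = 0.0528). Within slides, Plk2 was higher at D3 than at D0 on 4 of 4 slides, by 0.38 to 1.53. The D3 change became a call without the lung arrays that stood apart (adjusted p = 0.0403), without D2 mouse 12 alone (0.0244) or without vehicle-treated mouse 4 (0.0407), and its adjusted p ran from 0.0244 to 1.00 over 24 alternatives, the highest with median centering (change 0.88). The trend became a call without D2 mouse 12, without D1 mouse 9, or after normexp background correction. Among 12 immediate early genes, which Plk2 can accompany, 8 were higher and 4 lower at D3 and 0 were called. Over all probes 50.9% were higher and 0.0336% were called. The immediate early genes had a mean of -1.08 to -0.74 in vehicle-treated lungs and -0.92 to -0.59 in D3 lungs. Their part in the Plk2 change was not tested. The change of Plk2 at D3 was -0.14 (-0.46 to 0.18) in liver and 0.09 (-0.38 to 0.56) in forestomach. Tested directly, the lung change minus the liver change was 1.12 (0.61 to 1.64, adjusted p = 0.106), and the lung change minus the forestomach change was 0.89 (0.35 to 1.43, adjusted p = 0.923).

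Pmaip1, which encodes the BH3-only death protein Noxa, had lower ratios in exposed than in vehicle-treated lungs. Its log2 ratio was 0.19, 0.43, 0.28 and 0.52 in vehicle-treated mice, -0.42, -0.51 and -0.06 in D1 mice, -0.55, -0.96, -0.47 and 0.09 in D2 mice and -0.47, -0.55, -0.0030 and -0.56 in D3 mice. Every exposed lung lay below every vehicle-treated lung, at all 3 doses. The change was -0.68 (95% interval -1.13 to -0.24, adjusted p = 1.00) at D1, -0.83 (95% interval -1.24 to -0.41, adjusted p = 0.52) at D2 and -0.75 (95% interval -1.16 to -0.34, adjusted p = 0.328) at D3, so it had no steady order over dose and did not pass the test. All 3 comparisons share the same 4 controls. Within slides it was lower on each of the slides that held both groups, with differences of -1.39 to -0.19 at D2 and -1.08 to -0.29 at D3. Pmaip1 is also switched on by the stress factor ATF4, and of 8 other ATF4 stress genes kept in lung 2 were higher and 6 lower at D3. Of the lower ones 4 had an unadjusted p under 0.05 and 0 were called, against 8.02% and 0.0336% of all probes. The ATF4 stress genes had a list mean of -1.55 to -1.15 at D0 and -1.71 to -1.47 at D3. Their part in the lower Pmaip1 was not tested. As in all bulk tissue, fewer cells of a type and less RNA per cell cannot be told apart here.

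Gadd45a, a growth arrest and repair protein, had narrow groups in lung. Its log2 ratio was -1.49, -1.33, -1.58 and -1.56 in vehicle-treated mice, -1.47, -1.48 and -1.50 in D1 mice, -1.22, -1.17, -1.23 and -1.31 in D2 mice and -1.41, -1.35, -1.48 and -1.30 in D3 mice. The 4 D2 lungs lay above all controls, with a change of 0.26 (95% interval 0.08 to 0.44, adjusted p = 0.994), whereas D1 and D3 overlapped the controls with changes of 0.01 and 0.10. The D2 lungs were higher on 4 of 4 slides, by 0.16 to 0.34.

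The other lung members can be read by role. Of the 7 cell cycle and growth arrest genes, 5 were higher and 2 lower at D3, and apart from Plk2 their changes ran from -0.26 (Cdkn1a) to 0.20 (Btg2, an antiproliferative protein). Of the 10 genes of mitochondrial and nuclear cell death, 3 were higher and 7 lower at D3 (5 and 5 without D3 mouse 17), between -0.75 for Pmaip1 and 0.24 for Phlda3, an inhibitor of Akt signaling. Bax and Bbc3 (which encodes Puma), both of which open mitochondria for cell death, were at -0.20 (-0.71 to 0.30) and -0.14 (-0.46 to 0.19). The Bax value turned to 0.12 without D3 mouse 17, and on 3 of 4 slides Bax was higher at D3. Both death receptors kept by the filter had values below 0, Tnfrsf10b at -0.38 (-0.89 to 0.13) and Fas at -0.03 (-0.42 to 0.36). Vehicle-treated mouse 2 was the highest control for Tnfrsf10b, whose D3 change was -0.10 without it, and Fas was at 0.14 without D3 mouse 20. All 6 stress and metabolism genes had changes above 0 (4 to 6 of them with each array left out in turn), from 0.04 for Ak1, adenylate kinase, to 0.42 (95% interval 0.07 to 0.76, adjusted p = 0.519) for Ddit4, an inhibitor of mTOR signaling. Without D3 mouse 20 Ak1 was at -0.17 and Sesn2 at -0.04, and without vehicle-treated mouse 3 Gdf15 was at -0.05. In DNA synthesis and repair, the translesion polymerase gene Polk was at 0.19 (-0.11 to 0.49) and Rrm2b, the p53-inducible ribonucleotide reductase subunit, at -0.21 (-0.42 to 0.0041). Polk was at 0.08 without vehicle-treated mouse 2, and Rrm2b at -0.12 without D3 mouse 16. Perp and Ak1 had the widest intervals in lung, and on the array of D2 mouse 12 Perp read 2.22 and Ak1 1.77. Their D2 changes were 0.50 and 0.61 with it and -0.21 and -0.07 without the arrays that stood apart. On that same array squamous forestomach markers averaged 3.14, against -0.30 to -0.16 in vehicle-treated lungs.

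Groups that did not overlap with the controls were Phlda3 (higher) and Pmaip1 (lower) at D1, Gadd45a and Pmaip1 at D2, and Plk2, Dcxr (both higher) and Pmaip1 at D3, that is 2, 2 and 3 of 29 genes in lung. Over all probes 4.08%, 2.33% and 5.31% did not overlap. Dcxr, a xylulose reductase, was higher at D3 by 0.36 (-0.03 to 0.75). Over the 3 doses 10 lung genes were higher at each dose, 3 were lower at each (Fas, Pmaip1 and Tnfrsf10b) and 16 were mixed, and the doses share the controls. Of the 3 lower genes, Tnfrsf10b was higher at D1 without vehicle-treated mouse 2 (0.27) and Fas without D1 mouse 8 (0.02), while Pmaip1 was lower at each dose whichever array was left out.

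In liver the genes with the lowest p values had them at the medium dose, and none was called. Gdf15, a secreted stress cytokine, had a log2 ratio of -0.19, -1.14, 0.27 and 0.70 in vehicle-treated mice, -1.11 and -0.10 in D1 mice, -1.62, -1.59 and -1.27 in D2 mice and -0.92, -0.31, -1.40 and -0.32 in D3 mice. All 3 D2 livers lay below the 4 controls, which themselves ran from -1.14 to 0.70, and the change was -1.40 (95% interval -2.25 to -0.56, adjusted p = 0.265). At D1 and D3 the changes were -0.51 (-1.47 to 0.44) and -0.65 (-1.43 to 0.14). With each array left out in turn they ran from -1.02 (without D1 mouse 9) to -0.0068 (without D1 mouse 8) at D1 and from -0.99 (without vehicle-treated mouse 2) to -0.38 (without vehicle-treated mouse 4) at D3, and without the arrays that stood apart the D2 change was -1.35.

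Tnfrsf10b, the mouse TRAIL death receptor, was the liver gene with the next lowest p. Its log2 ratio was -2.46, -2.38, -2.55 and -2.69 in vehicle-treated mice, -2.40 and -2.45 in D1 mice, -2.25, -1.57 and -2.10 in D2 mice and -2.37, -2.32, -2.26 and -2.73 in D3 mice. All 3 D2 livers lay above every control, with mouse 12 the highest, and the change was 0.55 (95% interval 0.20 to 0.89, adjusted p = 0.272). Without the arrays that stood apart it was 0.34, and with the log ratios of the scanner software it was 1.48. The D1 and D3 livers overlapped the controls, and the D3 change was 0.10 (-0.22 to 0.42).

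Gdf15, Tnfrsf10b and Cdkn1a were 3 of the 7 genes of 27 with an unadjusted p under 0.05 at D2 in liver. The others were Plk3, a polo-like kinase, at 1.14 (95% interval 0.11 to 2.16, adjusted p = 0.426), Btg2 at 0.61 (95% interval 0.03 to 1.20, adjusted p = 0.447), Aen, a nuclease of apoptotic DNA, at 0.43 (95% interval 0.10 to 0.77, adjusted p = 0.365), and Ccng1, given above. Aen was read by a second probe with a like D2 change of 0.41. D2 mouse 12 had 6 genes more than 1 log2 unit away from the control mean, 5 of them higher, and D2 mice 11 and 13 had 1 and 2. Without the arrays that stood apart, which include D2 mouse 12, Btg2 was at 0.18, Aen at 0.38 and Plk3 at 0.99. Ddit4 was then at -0.07 in place of 0.49, and the median over the genes was 0.11 in place of 0.19.

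Other gene lists also had different values in the exposed livers. Liver of D2 mouse 12 had a mean of 1.26 over 10 glucocorticoid and fasting genes, against -0.97 to 0.05 in the other livers, and the highest mean of the immediate early genes (-1.62). Its lung and forestomach were also the highest on the glucocorticoid and fasting genes, at 1.58 and 0.95. Liver of D2 mouse 12 also had the highest mean of 5 aryl hydrocarbon receptor genes used as a check of exposure. It was 2.25, against -1.50 to 1.21 in the other livers. On these genes the forestomach of that mouse was the highest (2.16), while its lung (3.34) was below the highest lung (4.03). Of 16 proliferation genes kept in liver 13 were higher at D2, 11 of them with an unadjusted p under 0.05 and 0 called. Over all probes 48.7% were higher, 10.7% had an unadjusted p under 0.05 and 0.0426% were called. The mean of the proliferation genes was -3.34 to -3.00 at D0 and -3.03 to -2.63 at D2. The mean of 7 macrophage genes was 1.07 to 1.37 at D0, 1.77 to 2.28 at D2 and 1.72 to 2.56 at D3. Cx3cr1 and Cd74 of that list were called at D3, against 0.0524% of all probes. The list was chosen with earlier results of these data known, so these calls are no separate evidence. All 8 liver marker genes were lower at each dose, 5 of them with an unadjusted p under 0.05 at D3 and 0 called. Over all probes at D3, 7.8% had an unadjusted p under 0.05 and 0.0524% were called. The mean of the liver markers was 8.41 to 8.68 at D0, 7.99 to 8.38 at D2 and 7.92 to 8.34 at D3. The part of these in the liver values was not tested.

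At the high dose the liver members lay close to the controls. Sesn1, a sestrin that restrains mTOR signaling, was the only gene of 27 with an unadjusted p under 0.05 at D3, at 0.32 (95% interval 0.04 to 0.59, adjusted p = 0.583), and all 4 D3 livers lay above the controls. Gdf15 (-0.65) and Ak1 (0.60) had the largest changes at D3, and Ak1 read -2.12 in D3 mouse 17, the liver with skeletal muscle genes, and had a change of 0.07 without it. The remaining 24 of 27 changes at D3 lay between -0.19 (Pmaip1) and 0.27 (Aen). Pmaip1 was well above background on only 2 of 13 liver arrays and Plk2 on 7, so their liver ratios are near the limit of the signal. Bax was at 0.04 (-0.21 to 0.30), Fas at 0.13 (-0.16 to 0.43) and Polk at 0.05 (-0.36 to 0.45). Bax was at -0.013 without D3 mouse 19, Fas at 0.024 without D3 mouse 17 and Polk at -0.066 without D3 mouse 16. The groups did not overlap for Aen and Sesn1 (higher) and Ei24 (lower) at D1, for Phlda3, Sesn1, Perp and Tnfrsf10b (higher) and Gdf15 (lower) at D2, and for Sesn1 (higher) and Ei24 (lower) at D3, against 11.3%, 9.26% and 5.99% of all probes. Ei24 encodes a membrane protein of the endoplasmic reticulum with a role in autophagy, and its D3 change was -0.15 (-0.35 to 0.04).

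**Figure D3:**
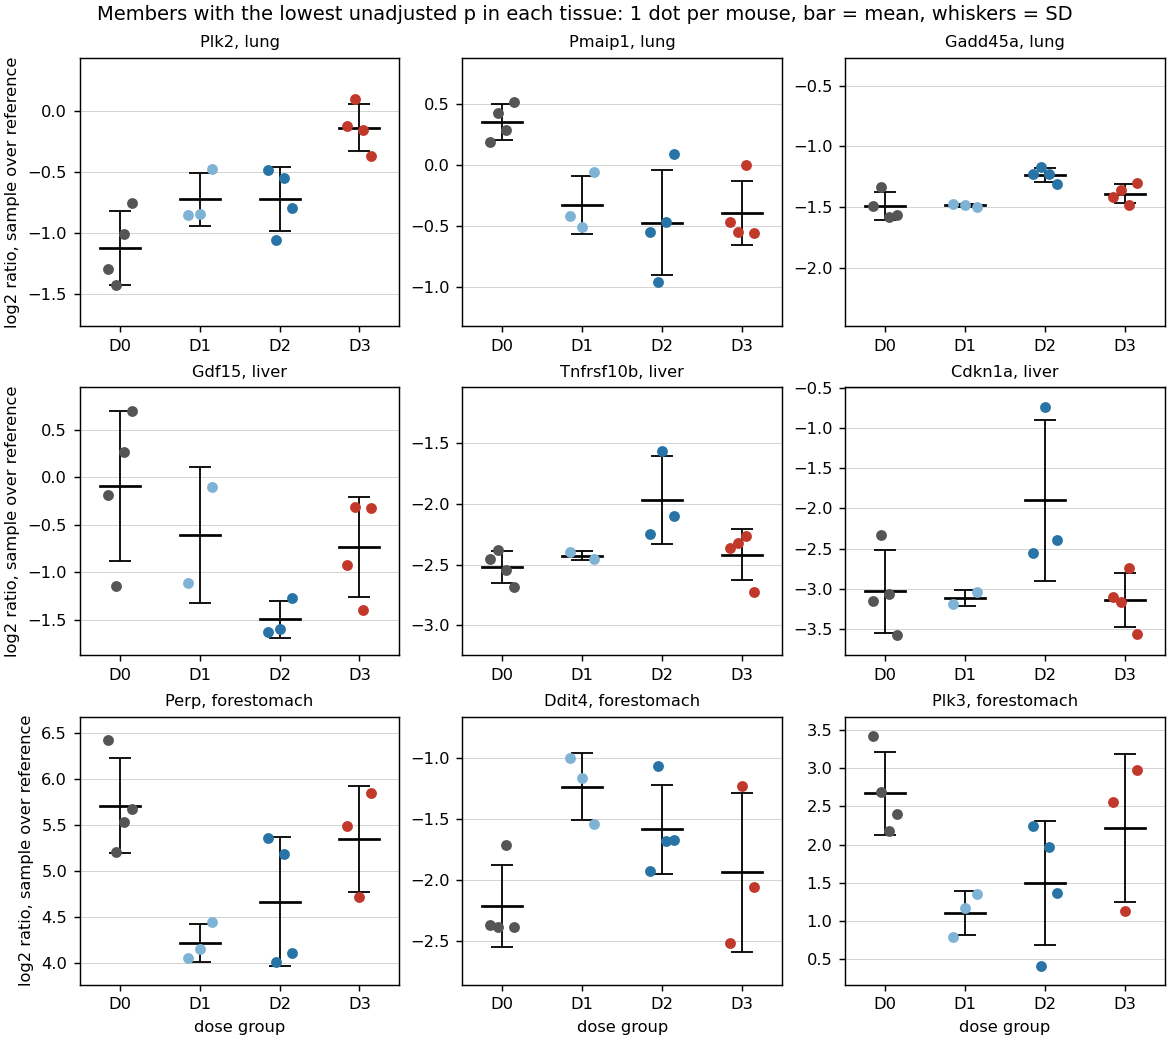
Log2 ratio of tissue over reference RNA (vertical axis) by dose group for the 3 members with the lowest unadjusted p in lung (Plk2, Pmaip1, Gadd45a), liver (Gdf15, Tnfrsf10b, Cdkn1a) and forestomach (Perp, Plk3, Ddit4), with a point for each mouse and bars for the mean ± SD. In lung the 4 D3 points of Plk2 sit above all control points and the exposed points of Pmaip1 sit below them, in liver D2 mouse 12 is the highest D2 point of Tnfrsf10b and Cdkn1a, and in forestomach the D1 points stand apart from the controls.

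In forestomach the low dose, not the high dose, differed most from the controls, and the amount of glandular stomach differed with it. All 3 D1 forestomachs carried glandular stomach genes (5.71 to 6.18), as did only 2 of 4 controls and 1 of 3 D3 mice. Perp, a p53 target that is also a component of desmosomes in squamous epithelium, had a log2 ratio of 6.43, 5.21, 5.53 and 5.67 in vehicle-treated mice, 4.05, 4.15 and 4.45 in D1 mice, 5.36, 4.01, 5.18 and 4.11 in D2 mice and 5.49, 4.71 and 5.84 in D3 mice. The 3 D1 mice lay below all controls, and the change was -1.49 (95% interval -2.32 to -0.67, adjusted p = 0.259). With the glandular stomach score as a covariate it was -0.99, and over the arrays that carry glandular stomach genes it was -1.16. Control mice 1 and 4, with little glandular tissue, had the 2 highest Perp ratios of the controls.

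Plk3 had a log2 ratio of 3.42, 2.69, 2.17 and 2.40 in vehicle-treated mice, 0.79, 1.17 and 1.36 in D1 mice, 2.25, 0.42, 1.97 and 1.37 in D2 mice and 2.55, 1.13 and 2.97 in D3 mice. All D1 mice were again below all controls, with a change of -1.56 (95% interval -2.60 to -0.53, adjusted p = 0.283), of -1.01 with the covariate and of -1.32 over the arrays that carry glandular stomach genes. Ddit4 had a log2 ratio of -2.37, -2.39, -1.71 and -2.38 in vehicle-treated mice, -0.997, -1.16 and -1.54 in D1 mice, -1.92, -1.07, -1.68 and -1.67 in D2 mice and -2.52, -1.23 and -2.05 in D3 mice. The D1 mice lay above all controls, of which mouse 3 was the highest, and the change was 0.98 (95% interval 0.34 to 1.62, adjusted p = 0.277). It was 0.66 with the covariate, 0.82 over the arrays that carry glandular stomach genes and 0.45 with median centering. Fitted with only D0 and D1, Perp (adjusted p = 0.0442), Plk3 (0.0473) and Pmaip1 became calls, in a fit that called 333 probes in all. Over 24 alternatives the adjusted p ran to 0.997 for both Perp and Plk3.

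Of the 27 forestomach genes, 8 had an unadjusted p under 0.05 at D1, against 12.1% of all probes. With the covariate 5 kept one (Perp, Ddit4, Plk3, Phlda3 and Ccng1), against 6.15% of all probes in that fit. Of the 8 genes, Perp, Plk3 and Ddit4 are given in the text before, as is Ccng1. The rest were Phlda3 at -1.12 (-1.88 to -0.35), Sesn1 at -0.82 (-1.54 to -0.09), Zmat3, which encodes an RNA-binding regulator of splicing, at -0.49 (-0.97 to -0.01), and Ak1 at 0.75 (0.10 to 1.39). With the covariate Phlda3 was at -0.76, Sesn1 at -0.39, Zmat3 at -0.27 and Ak1 at 0.44. Over the arrays that carry glandular stomach genes, 3 at D1 against 2 controls, they were at -0.998, -0.53, -0.43 and 0.47. Pmaip1 had the largest positive change at D1, 1.19 (-0.07 to 2.46), with an interval that included 0, and was at 0.48 with the covariate and 0.97 over those arrays. At D2, Plk3, Perp and Ddit4 kept their directions at -1.17 (-2.13 to -0.21), -1.04 (-1.81 to -0.28) and 0.63 (0.04 to 1.22), and 3 of the 4 D2 forestomachs carried glandular stomach genes. At D3 no gene had an unadjusted p under 0.05, and the changes lay between -0.45 (Plk3) and 0.29 (Dcxr). Without D3 mouse 17, the D3 forestomach with glandular stomach genes, Plk3 was at 0.09 and Dcxr at 0.08. The groups did not overlap for 10 of 27 genes at D1 (Ccng1, Bbc3, Pmaip1, Ei24, Ddit4 and Ak1 higher, Phlda3, Sesn1, Plk3 and Perp lower), for 2 at D2 (Bbc3 and Ak1, higher) and for 0 at D3, against 14.8%, 3.55% and 2.9% of all probes. Of 17 proliferation genes kept, 17 were higher at D1, 5 of them with an unadjusted p under 0.05 and 0 called. Over all probes 47.8% were higher, 12.1% had an unadjusted p under 0.05 and 0% were called. The proliferation genes had a list mean of -2.11 to -1.85 at D0 and -1.65 to -1.41 at D1.

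**Figure D4:**
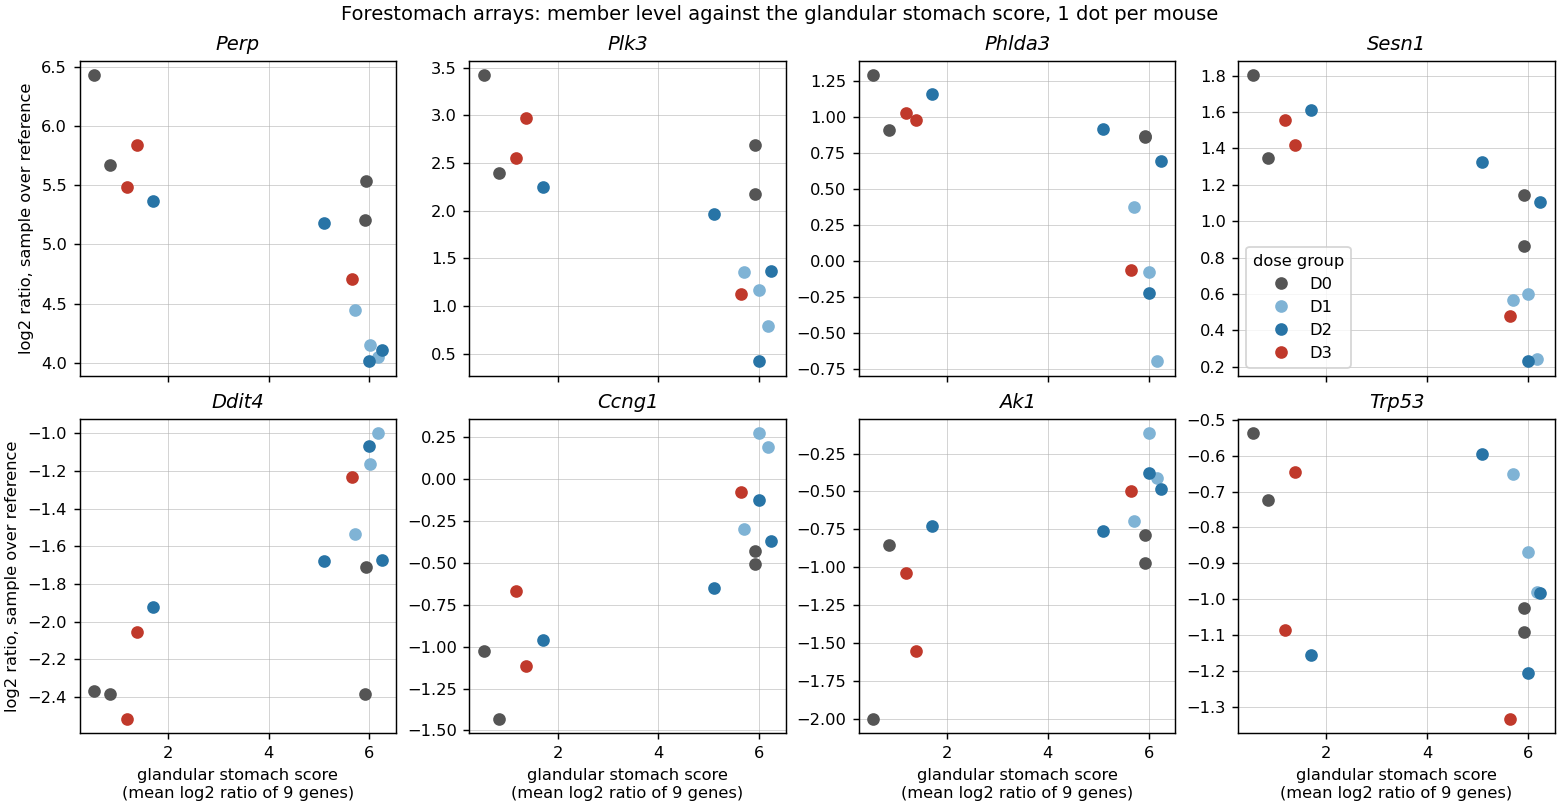
Log2 ratio of 8 members in the 14 forestomach arrays (vertical axes) against the mean log2 ratio of 9 glandular stomach genes (horizontal axis), colored by dose group. The arrays form a cluster at 0.54 to 1.70 and another at 5.10 to 6.24, and Perp, Plk3, Phlda3 and Sesn1 lie lower, and Ddit4, Ccng1 and Ak1 higher, on most arrays of the second cluster.

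By role, the forestomach at D3 held 3 higher and 4 lower of 7 cell cycle and growth arrest genes, 4 higher and 5 lower of 9 cell death genes, 2 higher of 2 death receptors and 3 higher and 3 lower of 6 stress and metabolism genes. In liver at D3 the counts were 4 higher and 3 lower, 4 higher and 5 lower, 2 higher of 2, and 3 higher and 3 lower. None of these passed the test. With each array left out in turn, 2 to 5 of the 7 cell cycle genes were higher in both tissues, and of the 9 cell death genes 3 to 6 in forestomach and 3 to 5 in liver. Bbc3 was at 0.24 (-0.09 to 0.56) and Btg2 at 0.17 (-0.45 to 0.80) in forestomach at D3, and Fas at 0.10 (-0.39 to 0.59). Without vehicle-treated mouse 2 Bbc3 was at 0.10. Btg2 was at -0.07 without D3 mouse 17 and Fas at -0.08 without D3 mouse 16, which left 1 of the 2 death receptors higher.

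**Figure D5:**
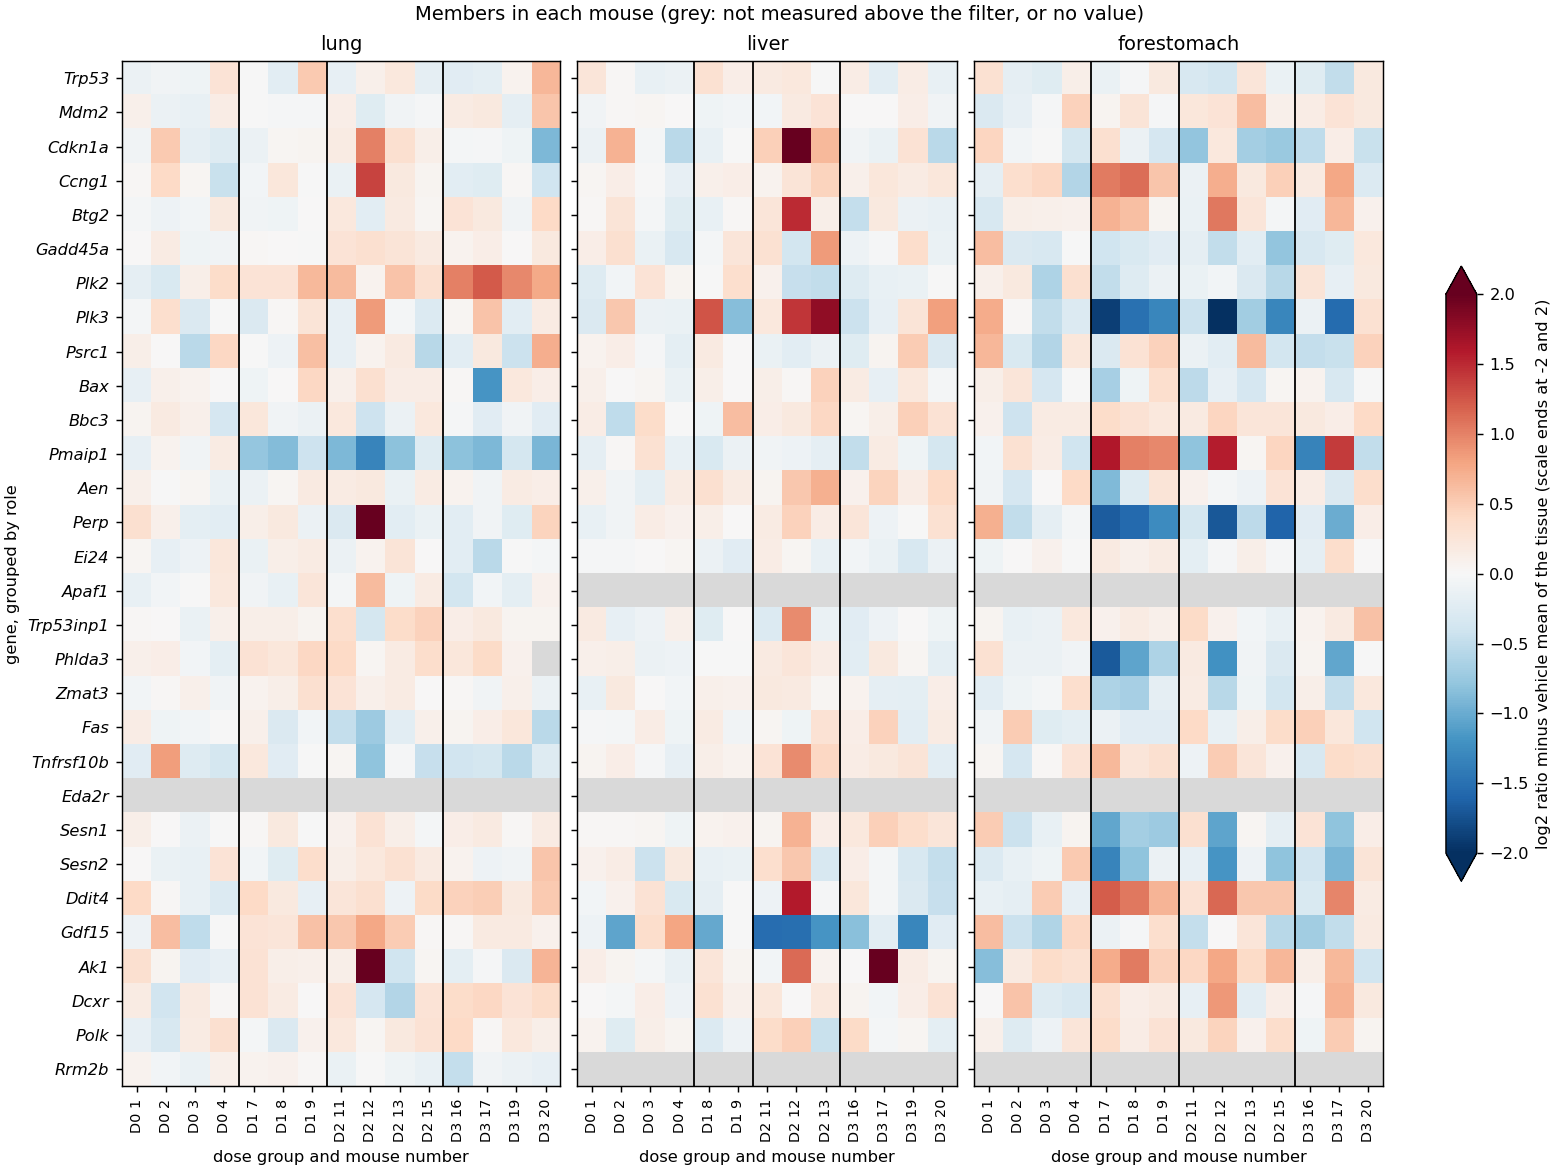
Deviation of each member from the mean of the vehicle-treated controls of the tissue (log2, color) in each of the 42 arrays, with genes in rows and mice in columns by dose group, and grey for genes below the filter or without a value. D2 mouse 12 has 5 genes in lung and 6 in liver more than 1 log2 unit from the control mean, against at most 2 on any other array of those tissues, and in forestomach D1 mice 7 and 8 and D2 mouse 12 have 7 or 8 such genes each, against at most 3 on any other array.

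Between tissues, the change at D3 was compared gene by gene in a joint fit of the 3 tissues. No member was called, against 0.0153% of 26105 probes for lung minus liver, 0.0122% of 24526 for lung minus forestomach and 0% of 22720 for liver minus forestomach. The median over 27 members was 0.03 for lung minus liver, 0.03 for lung minus forestomach and 0.0053 for liver minus forestomach, and Plk2, given above, had the largest difference in the first 2. The difference was 0.09 (-0.42 to 0.61) for Trp53, 0.17 (-0.21 to 0.55) for Mdm2 and -0.16 (-1.03 to 0.72) for Cdkn1a in lung minus liver.

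Of the genes with little signal, Eda2r, a death-domain receptor, was below the filter in all 3 tissues, and Rrm2b and Apaf1, the core of the apoptosome, were below it in liver and forestomach. In forestomach Eda2r and Apaf1 were each well above background on 1 of 14 arrays, so no difference is given for them. Phlda3 has no value in lung of D3 mouse 20, where the scanner software marked the spot as an outlier, so its D3 change rests on 3 mice. Aen, Trp53inp1, Polk and Cdkn1a were read by a second probe. Over the 3 doses the second probe had the other sign in 6 of 12 comparisons in lung, 4 of 12 in liver and 0 of 6 in forestomach. In liver at D2 these were Trp53inp1 (0.18 and -0.03) and Polk (0.14 and -0.10).

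The rest of the pathway was counted in 2 further lists. The first held 15 genes that act upstream of p53 or control it, among them the damage kinases, and the second 25 other p53 targets. In both, 0 genes were called at any dose in any tissue, where at most 0.0524% of all probes were called. In lung the lowest unadjusted p value of the first list belonged to Trp53bp1, which marks double-strand breaks, at D3 (-0.35, adjusted p = 0.425), although a second probe of Trp53bp1 gave -0.02. In liver the lowest of the 2 lists belonged to Sfn, a 14-3-3 protein that holds cells in G2, at D2 (-0.60, adjusted p = 0.268), and to Triap1, a small inhibitor of apoptosis, at D2 (0.44, adjusted p = 0.310). In forestomach they were Sfn at D1 (-1.42, adjusted p = 0.259), which is abundant in squamous epithelium, and Triap1 at D2 (-0.63, adjusted p = 0.535).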

How the data were processed

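Lung, liver and forestomach RNA was measured on 42 2-color Agilent mouse arrays, and groups and mouse numbers came from the sample labels. The authors deposited a scanner file per array, with the median intensity of each spot in both channels and a log10 ratio made by Feature Extraction (version 10.7.3.1 for lung and forestomach, 11.0.1.1 for liver). They also deposited LOWESS-normalized log2 ratios, without background subtraction, from which they called DEGs with MAANOVA. MAANOVA was not at hand, and limma was used in its place.

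Log2 ratios of the red over the green median, without background subtraction, were loess-normalized within each array, after control spots and outlier spots were left out, and spots of a probe were averaged. A probe was kept when it was marked well above background on 3 arrays in lung, 2 in liver or 3 in forestomach (the size of the smallest group), and probes were named through RefSeq accessions (26413 of 55681 probes, 20018 genes). Each tissue was fitted with all its dose groups in limma (R 4.3.3, limma 3.58.1), with Benjamini-Hochberg adjustment over all kept probes. A fit over all tissues compared the D3 changes, and alternatives covered background, scaling, filter, probe, slide, samples and each array left out. A list mean is the mean log2 ratio of the list's probes on an array. The scripts were tested on simulated data. On an array the number of mice, not depth, limits the precision.

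The members were chosen by name, and both they and all gene lists were chosen with earlier results of these data known. Values in every sample are given for Trp53, Mdm2, Cdkn1a and Ccng1 and for the 3 members with the lowest unadjusted p against the vehicle-treated controls in each tissue. Genes of the 2 pathway lists are named where they had the 2 lowest p of a tissue, and other members by role. Sequences are those of the RefSeq promoter table. Mouse numbers are the same animal in each tissue, so they pair tissues but not dose groups. Deviations of the same mouse from the group mean had a median correlation of 0.08 between lung and liver, 0.16 between lung and forestomach and 0.03 between liver and forestomach. Expression of single cell types was not measured.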

Additional observations from a re-analysis of the deposited data

Results flagged for a closer look

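Of 47 groups of 4 arrays over the members described in every sample, 5 held an array far from the other 3, and chance alone gives about 5% of groups. Trp53 in vehicle-treated lung was -1.22 in mouse 4, against -1.61 to -1.57 in the others. Cdkn1a in D3 lung was -1.56 in mouse 20, against -0.74 to -0.69. Cdkn1a in D2 forestomach was 0.84 in mouse 12, against -0.16 to -0.04. Pmaip1 in D3 lung was -0.0030 in mouse 19, against -0.56 to -0.47. Ddit4 in vehicle-treated forestomach was -1.71 in mouse 3, against -2.39 to -2.37.

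Genes of tissues other than the labeled one were seen on some arrays of exposed mice, above the level in vehicle-treated controls. The mean log2 ratio of skeletal muscle genes was 4.86 in lung of D2 mouse 12, where the 4 vehicle-treated lungs had -0.79 to -0.52. It was 3.88 in liver of D3 mouse 17, where vehicle-treated livers had -0.63 to -0.49. The mean of glandular stomach genes was 4.00 in lung of D1 mouse 7, against 0.13 to 0.52 in vehicle-treated lungs, and that of forestomach markers was 3.14 in lung of D2 mouse 12, against -0.30 to -0.16.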

How the results depend on the processing

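Of the counts of members called, 408 of 415 stayed at the reported 0 under the alternatives. Calls were rare over the whole array, so this says little about the members. Of 207 medians, 188 stayed within the spread of the vehicle-treated arrays. Of 483 changes of single genes, 461 kept their direction and their side of the threshold, 5 became calls and 17 turned in sign. In lung at D3 the count was 1 (Plk2) without the arrays that stood apart, a setting added after seeing the data, and 0 to 1 with each array left out. For the lung trend it was 1 with normexp and 0 to 1 with each array left out. In forestomach at D1 it was 3 when only the 2 groups were fitted. With median centering the median change was -0.080 and 0.29 in lung at D1 and D2, 0.44 and 0.26 in liver at D2 and D3, and -0.20 and 0.20 in forestomach at D1 and D3, where centering moved the median of all probes by -0.084 and 0.10 in lung, 0.13 and 0.15 in liver and -0.15 and 0.13 in forestomach. With the software ratio it was 0.31 and 0.080 in liver at D2 and D3. Without the arrays that stood apart it was 0.050 in lung and 0.11 in liver at D2. With each array left out it was -0.0051 to 0.085, 0.050 to 0.16 and 0.014 to 0.11 in lung from D1 to D3, -0.0015 to 0.086, 0.11 to 0.24 and -0.051 to 0.043 in liver, and -0.064 to 0.059 in forestomach at D3. At D3 in liver the sign turned for Trp53 (0.091 with the software ratio, 0.20 with centering, 0.050 without the arrays that stood apart), Mdm2 (-0.0016, software ratio) and Cdkn1a (0.16, centering). In forestomach it turned for Trp53 (0.069, software ratio, and 0.021, centering) and Cdkn1a (0.17, only arrays with glandular stomach genes, also added after seeing the data, which leaves 1 D3 array against 2 controls). With each array left out, Trp53 in lung ran from -0.12 to 0.18, and in liver Trp53 from -0.069 to 0.065, Cdkn1a from -0.29 to 0.12 and Mdm2 from -0.017 to 0.049, and Ccng1 in forestomach from -0.044 to 0.47. The cause of these turns was not tested, and the values lay within their errors.

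With the mouse as a replicate block in the comparison of tissues, 0 members were called in each of the 3 differences, as without it. The authors' log2 ratios were used as an alternative in lung and forestomach and were not run in liver, where their order of probes did not match that of the scanner files.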

Other observations

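The deposited log2 ratios of liver could not be matched to the scanner files by probe. The correlation over probes was -0.0030 to 0.00034 per array, against at least 0.997 in lung and at least 0.994 in forestomach, while the sorted values of the liver columns correlated at 0.9996 or more. Alb, the albumin gene of hepatocytes, read 6.60 to 7.41 in the liver scanner files and -0.16 to 0.21 under its probe in the deposited ratios.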
